A study of Caenorhabditis elegans with 18 samples.

Results

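The genes described here encode PALS proteins, SKR proteins and cullins of Caenorhabditis elegans, and were chosen by symbol: pals-, skr- or cul- followed by a number. RefSeq annotates 66 such genes (39 pals, 21 skr and 6 cul), and 60 of them have a row in the deposited count table. Of these, 36 had a mean of at least 10 estimated counts per library (15 pals, 15 skr and 6 cul), out of 39798 genes with a matched row, and all 36 also passed the filter of the test across genes. The 24 below that minimum are 22 pals genes, skr-5 and skr-6, and the 6 genes with no row (pals-7, pals-36, skr-11, skr-12, skr-17 and skr-21) were not analysed here. The members nearest to this minimum were pals-33, with a mean of 10.7 counts, and pals-26, with 8.57, which falls short of it. Means at 20 °C alone were below 10 for pals-6, pals-14 and pals-33, which therefore passed through their heated libraries and were bound to be higher there.

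Whole day-1 adults of 3 strains were sequenced: N2 Bristol, the laboratory wild type; RB711, which carries pqm-1(ok485); and CF1038, which carries daf-16(mu86). Both genes encode transcription factors of the stress response, and each mutant is represented by 1 strain with 1 allele. Each strain was kept at 20 °C or exposed to 35 °C in a water bath for 1 h and left to recover at 20 °C for 2 h, which gives 6 groups. Animals of every group grew from synchronised larvae on plates seeded with OP50-1 bacteria. The study concerns PQM-1, DAF-16 and dietary cues in resistance to stress. For the genes here the comparisons ask which of them respond to heat and whether either mutation alters their level or that response.

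Cullins are scaffolds of ubiquitin ligases. A cullin holds a RING protein that brings the ubiquitin-conjugating enzyme, and at its other end an adaptor that recruits the substrate receptor. For CUL-1 that adaptor is a Skp1-related (SKR) protein bound to an F-box protein, a complex called SCF. Nematodes have many SKR genes, of which skr-1 and skr-2 are the closest to Skp1 and are needed in development. PALS proteins share a weakly conserved signature named after ALS2CR12, their biochemical role is unknown, and the family is expanded in C. elegans. Several pals genes, with cul-6, skr-3, skr-4 and skr-5, belong to the intracellular pathogen response, a transcriptional programme induced by microsporidia and by the Orsay virus and also by prolonged heat. In that programme CUL-6 acts with SKR-3, SKR-4 or SKR-5 and the RING protein RCS-1 in a ligase that raises tolerance of heat.

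The comparisons rest on 12 libraries, those whose columns are named replicate 2 and 3, so n = 2 in every group. A column named for a daf-16 20 °C sample holds transcript lengths instead of counts. The 5 libraries named replicate 1 do not match their labels. Those labelled 20 °C had 209 and 324 counts per 1000000 (CPM, here of the plain library total) of hsp-16.2, a small heat shock protein gene, and those labelled 35 °C had 0.0391 to 0.417 CPM. In the 12 libraries used it was at most 0.420 CPM at 20 °C and at least 263 CPM after heat. These libraries held 18650314 to 33399358 counts over genes. The level of pqm-1 was 9.92 and 12.6 CPM in the pqm-1 strain at 20 °C against 24.1 and 26.1 CPM in N2. After heat it was 19.2 and 21.5 against 33.001 and 32.4 CPM. The daf-16 transcript of highest mean, the only one counted, did not separate the daf-16 strain (97.7 and 115 CPM at 20 °C) from N2 (88.0 and 105 CPM). Whether the counted daf-16 transcript lies outside the deleted part was not examined. From here on, CPM are scaled by the library total and a TMM composition factor, a fold change is the value from edgeR's quasi-likelihood fit over all 14278 genes tested, and a gene counts as called where its Benjamini-Hochberg adjusted p is under 0.05.

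Levels can be compared between genes only per length. In N2 at 20 °C, in CPM per kilobase of coding length, skr-1 stood highest at 350.1 and skr-2 next at 265, followed by skr-18 at 119.95 and skr-3 at 107. The cullins cul-3, cul-2 and cul-1 followed at 86.7, 62.7 and 51.9 CPM per kilobase, cul-5 at 23.7 and cul-4 at 17.8. The cullin of the pathogen response, cul-6, stood at 2.84 CPM per kilobase, below every other cullin. Among the pals genes the highest levels were those of pals-23 and pals-24, at 12.8 and 10.4 CPM per kilobase. Their libraries overlapped neither each other nor those of pals-17, next among the pals genes at 5.89, and the lowest members, pals-33 and pals-14 at 0.222 and 0.160, overlapped.

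After heat a small set of these genes rose in every strain, while the core ligase genes stood near their 20 °C level. In N2, 14 of the 36 genes were called (10 higher, 4 lower), which is 38.9% of them, against 34.7% of all genes tested. In the pqm-1 strain 9 were called, all higher (25%, against 25.2% of all genes), and in the daf-16 strain 8, all higher (22.2%, against 33.1%). Without pals-6, pals-14 and pals-33, 9 higher and 4 lower of 33 were called in N2, 7 higher in pqm-1 and 7 higher in daf-16. Over all 36 genes the share called was near the background in N2 and pqm-1 and below it in daf-16. Counted by direction, 16.8%, 12.5% and 16.5% of all genes were called higher in the 3 strains and 17.9%, 12.6% and 16.5% lower. Scaled by library size alone, the median of all genes in N2 moved from 0.02 to 0.1 and the share of calls that were higher from 48.5% to 61.8% in N2 and from 49.7% to 61.05% in pqm-1, while the members gave 10 higher and 3 lower in N2. The 36 genes had a median log2 fold change of 0.06, 0.08 and 0.25 in N2, pqm-1 and daf-16, beside 0.02, 0.01 and 0.03 over all genes, and without those 3 genes it was -0.01, 0.06 and 0.18. Heated and 20 °C libraries did not overlap for 24, 21 and 16 of the 36 genes in N2, pqm-1 and daf-16, against 67.2%, 67.9% and 65.8% of all genes. Altogether 16 genes were called in at least 1 strain and none in opposite directions, and 5 were called higher in all 3: cul-6, skr-3, skr-16, skr-19 and skr-20. The matching shares of all genes were not counted, so these counts across strains have no background beside them.

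**Figure D1:**
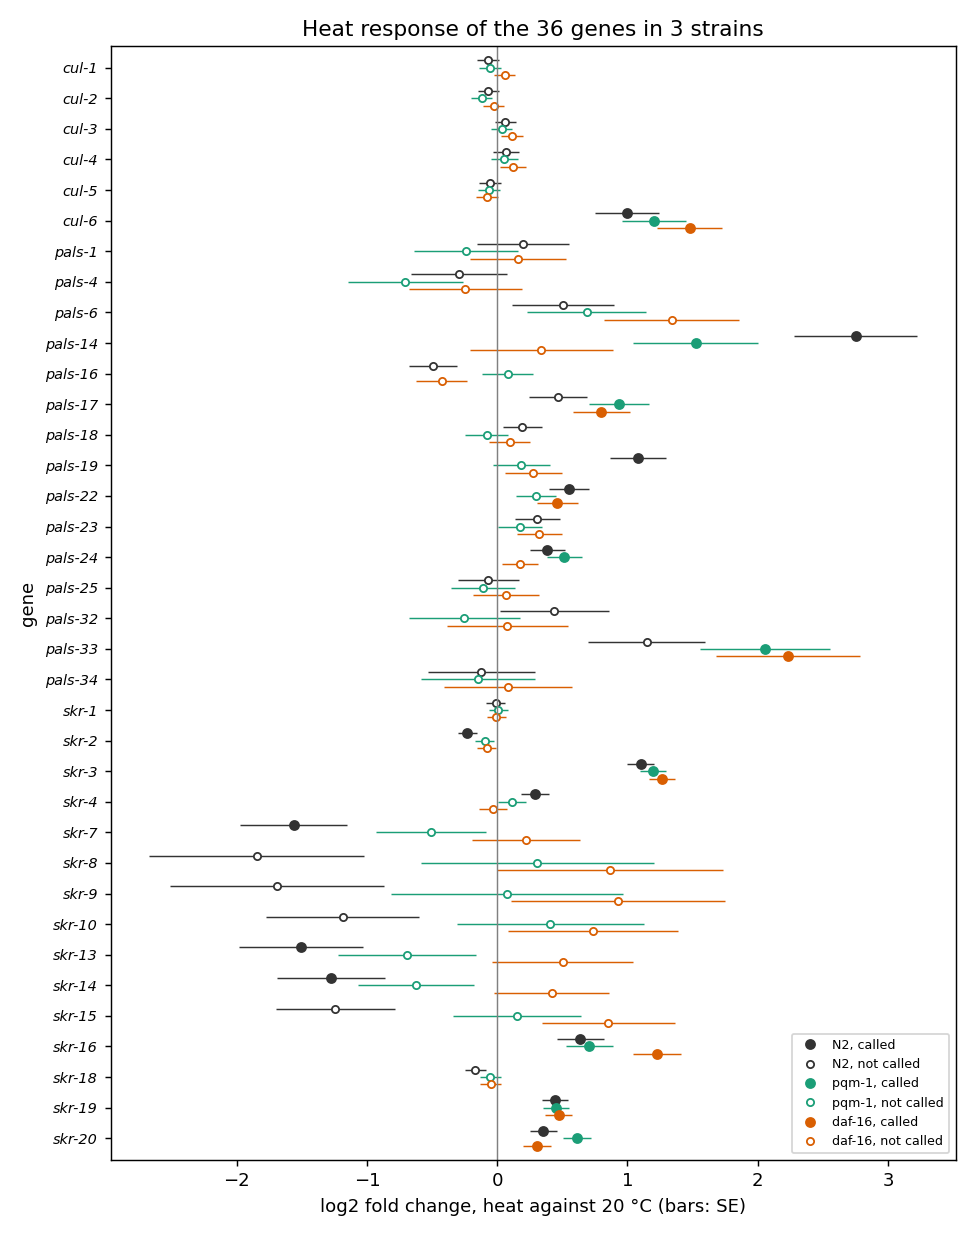
Heat response of the 36 genes in N2, pqm-1 and daf-16: the x axis gives the log2 fold change of heat against 20 °C with its SE, and filled points are called at an adjusted p under 0.05 (n = 2 libraries per group). The genes cul-1 to cul-5 lie between -0.12 and 0.12 in all 3 strains, while cul-6 and skr-3 lie between 1.00 and 1.48.

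Of the 6 cullin genes, cul-6 was called and the other 5 were not. Its level in N2 was 5.73 and 6.72 CPM at 20 °C and 15.7 and 9.50 CPM after heat. In the pqm-1 strain the values were 6.77 and 7.02 CPM, then 16.9 and 14.9 CPM, and in the daf-16 strain 6.43 and 6.08 CPM, then 21.5 and 13.5 CPM. Every heated library lay above every 20 °C library, and the heated pairs of N2 and daf-16 were far apart. Its log2 fold changes were 1.00 ± 0.25 (SE), 1.21 ± 0.24 and 1.48 ± 0.25 in the same order (edgeR adjusted p 0.00851, 0.00349 and 0.000785). Without replicate 2 of either N2 group the N2 call was lost (adjusted p up to 0.0804).

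The other cullins, cul-1 of the SCF ligase, cul-2 and cul-5, which use elongin-based adaptors, cul-3, which uses BTB proteins, and cul-4, which uses DDB-1, were not called in any strain. Their log2 fold changes with heat lay between -0.12 and 0.12, with SEs of 0.081 to 0.10 (15 values, edgeR adjusted p 0.317 to 0.836). The level of cul-1 at 20 °C was 128 and 115 CPM in N2, 119 and 117 CPM in pqm-1, and 119 and 114 CPM in daf-16. After heat it was 114 and 117, 119 and 108, and 115 and 128 CPM in the same order, so the groups overlapped in each strain. The Skp1 gene skr-1 stood at 186 and 186 CPM in N2, 195.5 and 182 CPM in pqm-1, and 188 and 203 CPM in daf-16 at 20 °C. After heat it stood at 183 and 186, 188 and 192, and 203 and 187 CPM, and it had log2 fold changes of -0.01, 0.01 and -0.01. A p that misses the threshold does not show that these levels were equal.

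Of the SKR genes of the pathogen response, skr-3 rose in each strain, by more than its spread. In N2 it stood at 54.3 and 53.6 CPM at 20 °C and at 125 and 106 CPM after heat. In the pqm-1 strain it went from 57.4 and 54.1 to 127 and 128 CPM, and in the daf-16 strain from 64.6 and 62.4 to 166 and 139 CPM. The heated libraries lay above all the others, with those of daf-16 the highest. The log2 fold changes were 1.10, 1.19 and 1.26, each ± 0.10 (adjusted p 1.54e-05, 9.34e-06 and 4.73e-06), and these calls held in all 21 other settings. Its close relative skr-4 was called in N2 alone, at 15.7 and 17.3 CPM before and 18.6 and 21.6 CPM after heat (log2 fold change 0.29 ± 0.11, adjusted p 0.0495), and 14 of 21 other settings lost that call (adjusted p up to 0.302), among them leaving out any 1 library except the heated N2 replicate 2 or a heated daf-16 library. In pqm-1 skr-4 was at 16.3 and 17.0, then 18.2 and 17.8 CPM, and in daf-16 at 19.2 and 17.3, then 16.9 and 18.8 CPM (log2 fold changes 0.11 and -0.03, not called). The third gene, skr-5, was below the count minimum. It had 8 and 7, 4 and 4, and 11 and 2 counts at 20 °C in N2, pqm-1 and daf-16, and 4 and 3, 2 and 0, and 0 and 1 after heat.

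The RING partner rcs-1, one of 6 listed regulators and partners of the pathogen response, rose alongside. It stood at 21.0 and 25.6 CPM in N2 at 20 °C and at 55.7 and 54.1 CPM after heat, a log2 fold change of 1.23 ± 0.10 (adjusted p 6.55e-06). In pqm-1 the log2 fold change was 1.00 ± 0.10 and in daf-16 0.75 ± 0.10 (adjusted p 3.61e-05 and 0.000172). Of that list 5 genes were tested, and 2, 1 and 3 were called in N2, pqm-1 and daf-16. These are 40%, 20% and 60% of the 5, against 34.7%, 25.2% and 33.1% of all genes. The STAT factor gene sta-1 was higher in N2 and daf-16 (log2 fold change 0.58 and 0.39), and the bZIP factor gene zip-1 was lower in daf-16 (-0.36, adjusted p 0.0276). The RIG-I-like receptor gene drh-1 was not called.

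**Figure D2:**
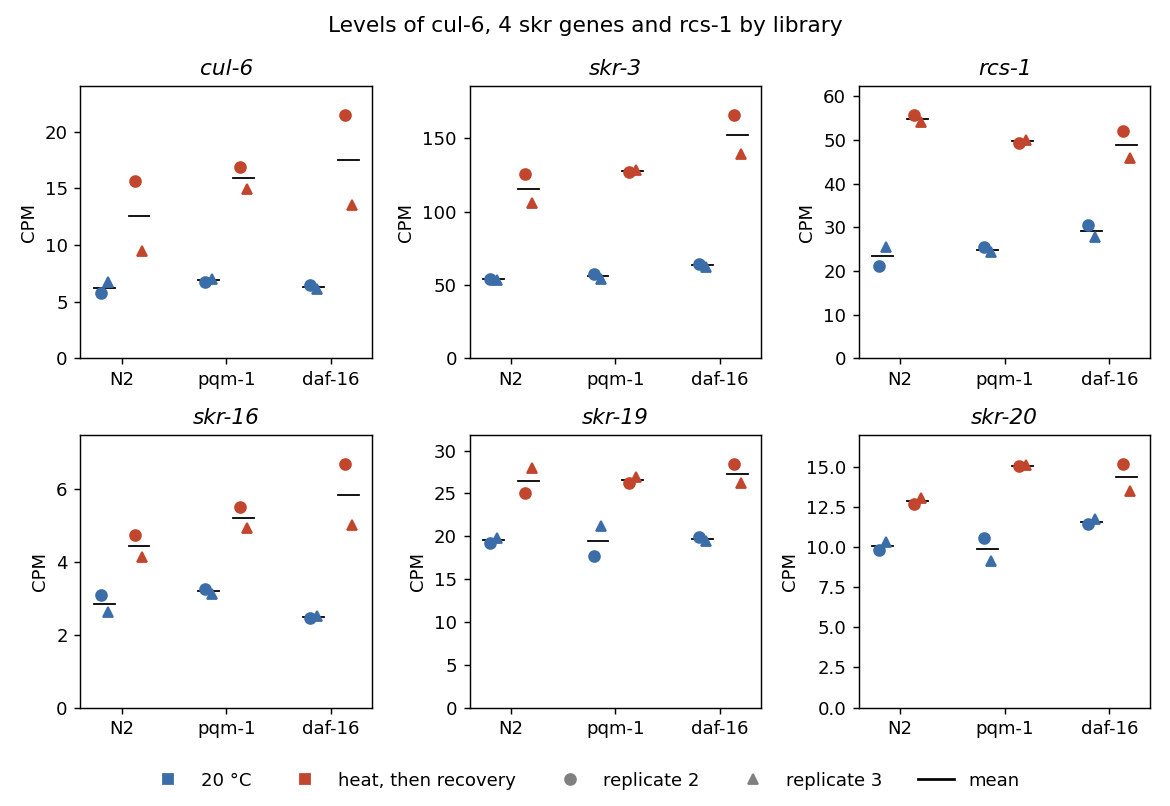
CPM of cul-6, skr-3, rcs-1, skr-16, skr-19 and skr-20 in each library, by strain and temperature, with the mean of the 2 libraries as a bar. In every panel both heated libraries of a strain lie above both of its 20 °C libraries, and cul-6 reaches 21.5 CPM in a heated daf-16 library.

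Further SKR genes that are not known members of the pathogen response also rose in each strain. The gene skr-16 went from 3.09 and 2.63 to 4.76 and 4.15 CPM in N2, from 3.27 and 3.13 to 5.51 and 4.93 CPM in pqm-1, and from 2.46 and 2.51 to 6.69 and 5.01 CPM in daf-16. Its groups did not overlap, and its log2 fold change was 0.64 ± 0.18, 0.71 ± 0.18 and 1.23 ± 0.19 (adjusted p 0.0165, 0.0126 and 0.000376). Its N2 call was lost with DESeq2 and without the 20 °C replicate 3 or the heated replicate 2 of N2, and its pqm-1 call without either 20 °C library or the heated replicate 2 of pqm-1 (adjusted p up to 0.118 and 0.0971). The adjacent X-linked genes skr-19 and skr-20 rose less. For skr-19 the 20 °C libraries of N2, pqm-1 and daf-16 stood at 19.2 and 19.8, 17.7 and 21.1, and 19.9 and 19.4 CPM, and the heated ones at 25.03 and 27.9, 26.2 and 26.95, and 28.4 and 26.2 CPM. All heated libraries lay above all 20 °C libraries, with a log2 fold change of 0.44, 0.45 and 0.47 (SE 0.10 each, adjusted p 0.00506, 0.00636 and 0.00377). The pqm-1 call was lost without the pqm-1 20 °C replicate 2. For skr-20 the 20 °C values were 9.82 and 10.3, 10.6 and 9.17, and 11.4 and 11.8 CPM, and the heated values 12.7 and 13.1, 15.1 and 15.1, and 15.2 and 13.5 CPM. They did not overlap either, with log2 fold changes of 0.35, 0.61 and 0.30 (adjusted p 0.0220, 0.00137 and 0.0456). The skr-20 call held in 5 of 21 other settings in daf-16, in 15 in N2 and in all 21 in pqm-1. In N2 it was lost without any 1 of the 4 N2 libraries, and in daf-16 without any 1 of the 12 libraries except the heated daf-16 replicate 3 (adjusted p up to 0.0965 and 0.231). The gene skr-18 was not called, with log2 fold changes of -0.17, -0.05 and -0.05.

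The heated replicates of a group also differed in hsp-70, an inducible chaperone gene. Its level after heat was 136 CPM in N2 replicate 2 and 40.8 CPM in replicate 3. The corresponding daf-16 libraries had 342 and 96.0 CPM and the pqm-1 libraries 104 and 108 CPM. In N2 and daf-16, replicate 2 was also the higher library for cul-6, skr-3 and skr-16, whereas in N2 skr-19 was higher in replicate 3. The part of this difference in the size of the heat effects was not tested. In bulk RNA of whole animals, more cells of a type and more RNA per cell cannot be told apart. Markers of other tissues moved with heat. The 6 intestine markers summed to 17093 to 25129 CPM at 20 °C and 9547 to 13821 CPM after heat, and 3 of 6 were called lower in each strain. The 6 germline and oocyte markers summed to 2488 to 3057 CPM and 2011 to 2416 CPM, with 4, 5 and 1 called lower. The 4 sperm markers with a row, of 6 listed, summed to 624 to 699 CPM and 338 to 432 CPM, with 3 called lower in each strain. The 4 larval moulting markers summed to 742 to 1353 CPM and 748 to 1013 CPM, with noah-1 called higher and mlt-10 lower in N2, mlt-10 and nas-37 lower in pqm-1 and nas-37 lower in daf-16. Of all genes, 17.9%, 12.6% and 16.5% were called lower with heat in N2, pqm-1 and daf-16. The part of the marker genes in the results was not tested.

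Heat called 4, 4 and 3 of the 15 pals genes in N2, pqm-1 and daf-16, all higher. These are 26.7%, 26.7% and 20% of the 15. Of all genes, 34.7%, 25.2% and 33.1% were called, and 16.8%, 12.5% and 16.5% were called higher. Without pals-6, pals-14 and pals-33, whose direction the count minimum fixed, heat called 3, 2 and 2 of 12. The calls were in 6 different genes, and none was called in all 3 strains. The median log2 fold change was 0.39, 0.18 and 0.18 over the 15 and 0.25, 0.00 and 0.13 over the 12. Highest per length among those called, pals-24 went from 8.62 and 10.3 to 13.9 and 11.0 CPM in N2 and from 9.85 and 10.9 to 14.8 and 15.0 CPM in pqm-1 (log2 fold change 0.39 ± 0.13 and 0.52 ± 0.13, adjusted p 0.0418 and 0.0140). In daf-16 it went from 10.5 and 9.32 to 11.1 and 11.2 CPM (0.18, not called). The N2 call held in 12 of 21 other settings, and was lost without replicate 2 of either N2 group or any 1 pqm-1 library (adjusted p up to 0.258). In pqm-1 it was lost without the 20 °C replicate 2 or either heated library (up to 0.111). It overlaps the gene C29F9.12 in the annotation, so its reads are uncertain.

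The pair pals-22 and pals-25 are neighbours on chromosome III. In other work on this species PALS-22 holds the pathogen response off and PALS-25 turns it on. The level of pals-22 at 20 °C was 3.49 and 3.30 CPM in N2, 4.07 and 3.84 CPM in pqm-1, and 3.78 and 3.48 CPM in daf-16. After heat it was 4.92 and 5.00, 4.57 and 5.17, and 5.54 and 4.52 CPM, above every 20 °C library. Its log2 fold change was 0.55 ± 0.15, 0.30 ± 0.15 and 0.46 ± 0.16 in N2, pqm-1 and daf-16 (adjusted p 0.0149, 0.185 and 0.0394). The N2 call was lost with DESeq2 and without replicate 3 of either N2 group (adjusted p up to 0.0840). The daf-16 call held in 11 of 21 other settings and was lost without replicate 2 of either N2 group, either pqm-1 20 °C library, either daf-16 20 °C library or the heated daf-16 replicate 2 (up to 0.241). For pals-25 the 20 °C values were 2.89 and 2.50, 3.32 and 1.92, and 2.13 and 2.56 CPM, and the heated values 2.42 and 2.69, 2.52 and 2.32, and 2.58 and 2.35 CPM. The groups overlapped, and its log2 fold changes were -0.07, -0.11 and 0.07.

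A run of 4 adjacent genes on chromosome III, pals-17, pals-16, pals-19 and pals-18, showed differing values. PALS-17 is described as a brake on the pathogen response and PALS-16 as a promoter of it. The gene pals-17 stood at 3.93 and 3.46 CPM in the pqm-1 strain at 20 °C and at 7.82 and 6.31 CPM after heat. In daf-16 it went from 5.34 and 5.21 to 10.3 and 8.13 CPM, while in N2 the groups overlapped, at 3.44 and 5.47 against 7.22 and 5.35 CPM. The log2 fold change was 0.94 ± 0.23 in pqm-1 and 0.80 ± 0.22 in daf-16 (adjusted p 0.0111 and 0.0144), and in N2 0.47 ± 0.22 (adjusted p 0.124). It was called in N2 too without the N2 20 °C replicate 3 (0.86, adjusted p 0.0299) and with no filter on low counts (0.46, adjusted p 0.0309). The pqm-1 call was lost without the 20 °C replicate 3 or the heated replicate 2 of that strain, and the daf-16 call without either 20 °C library or the heated replicate 2 of that strain (adjusted p up to 0.103 and 0.0953). Next to it pals-16 had log2 fold changes of -0.50, 0.08 and -0.43 and was not called. The gene pals-19 was called in N2 alone, at 1.79 and 2.34 CPM before and 4.67 and 4.18 CPM after heat (log2 fold change 1.08 ± 0.21, adjusted p 0.00223), and the call held in all 21 other settings. In pqm-1 it was at 2.61 and 2.71, then 2.82 and 3.25 CPM, and in daf-16 at 3.45 and 2.32, then 3.18 and 3.79 CPM, with log2 fold changes of 0.19 and 0.28. For pals-18 no value passed, with 0.19, -0.08 and 0.10.

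Among the 36 genes the largest rises were those of 2 genes with few counts. For pals-14 the N2 libraries held 1 and 7 counts at 20 °C and 34 and 38 after heat, or 0.0499 and 0.292 against 1.42 and 1.11 CPM. In pqm-1 the counts were 6 and 6, then 21 and 15, and in daf-16 7 and 6, then 5 and 11. Among heated libraries those of N2 stood highest and those of pqm-1 next, while those of daf-16 lay within the 20 °C range or just above it. Fitted log2 fold changes were 2.75 ± 0.47 for N2, 1.52 ± 0.48 for pqm-1 and 0.34 ± 0.55 for daf-16 (adjusted p 0.000965, 0.0357 and 0.674). The pqm-1 call was lost with DESeq2 and without any 1 of the 4 pqm-1 libraries or either daf-16 20 °C library. The daf-16 response minus that of N2 was -2.41 ± 0.77 (log2) and missed the threshold (adjusted p 0.235, unadjusted p 0.00837). Only with the heated N2 libraries did pals-14 meet the count minimum, so the choice of members favoured this direction. For pals-33 the counts were 5 and 8, 3 and 5, and 1 and 5 at 20 °C in N2, pqm-1 and daf-16, and 19 and 19, 20 and 15, and 14 and 14 after heat. All heated libraries lay above the others, and the log2 fold change was 1.15 ± 0.45, 2.05 ± 0.50 and 2.23 ± 0.55 in N2, pqm-1 and daf-16 (adjusted p 0.0671, 0.0103 and 0.00855). The pqm-1 call was lost without replicate 2 of either pqm-1 group and the daf-16 call without the daf-16 20 °C replicate 2 (adjusted p up to 0.0883 and 0.0766). Both genes are among those that passed the count minimum through their heated libraries.

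**Figure D3:**
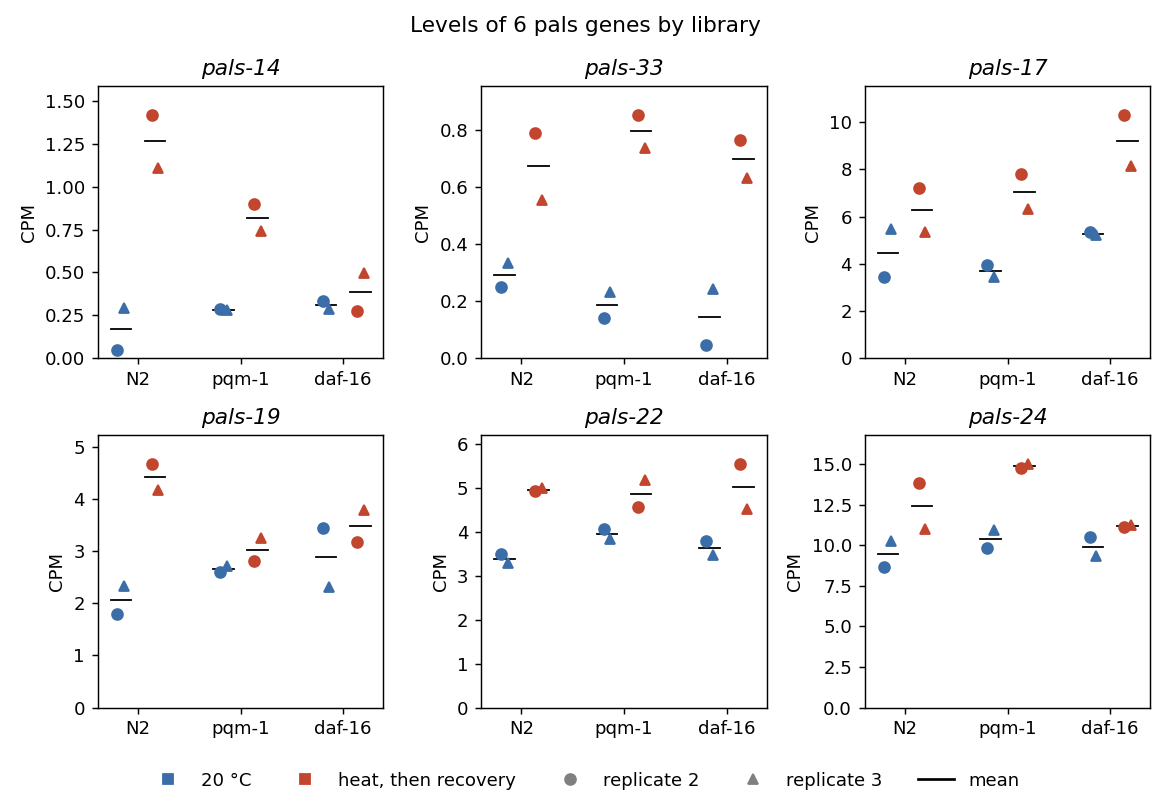
CPM of 6 pals genes in each library, by strain and temperature, with the mean of the 2 libraries as a bar. The heated N2 libraries of pals-14 lie at 1.42 and 1.11 CPM and those of daf-16 at 0.274 and 0.497 CPM, while pals-22 is higher after heat in each strain's libraries without overlap.

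The other 9 pals genes with enough counts were not called in any strain. Without the heated daf-16 replicate 3, pals-6 (1.80, adjusted p 0.0266) and pals-23 (0.55, adjusted p 0.0321) were called higher in daf-16. For pals-16 in N2 a lower level was called with no filter and without either daf-16 20 °C library (adjusted p 0.0475 to 0.0483). Their log2 fold changes with heat ran from -0.71 for pals-4 in pqm-1 to 1.34 for pals-6 in daf-16, with SEs of up to 0.52. Among them pals-23, a neighbour of pals-24, spanned 10.1 to 14.0 CPM at 20 °C and 11.1 to 17.0 CPM after heat. A further 22 pals genes had a mean below 10 counts, among them pals-5, whose promoter drives the usual reporter of the pathogen response and which had at most 1 count in any library. Summed over the 22 genes, the level was 1.79 and 1.79 CPM in N2 at 20 °C and 3.58 and 2.78 CPM after heat. In pqm-1 it went from 2.39 and 2.29 to 3.01 and 3.38 CPM and in daf-16 from 1.70 and 1.51 to 3.18 and 2.69 CPM. Every heated library was above every 20 °C library, and these sums carry no test. The largest count of any gene below the minimum was 24.5, for pals-26 in a heated N2 library.

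Other genes of the pathogen response gave few counts. Of 14 listed, 4 were tested and 1, 1 and 2 were called in N2, pqm-1 and daf-16. These are 25%, 25% and 50% of the 4, against 34.7%, 25.2% and 33.1% of all genes. The gene eol-1, of the DXO family of RNA decapping enzymes, rose in each strain, from 0.0997 and 0.167 to 1.88 and 1.67 CPM in N2. Its log2 fold change was 3.64 ± 0.49, 2.43 ± 0.43 and 3.95 ± 0.46 in N2, pqm-1 and daf-16 (adjusted p 0.000205, 0.00153 and 5.87e-05). Its 20 °C levels were too low for the filter, so it was tested through its heated libraries and had to be higher there. The gene sdz-6 was called lower in daf-16 (-1.66, adjusted p 0.0195), from 0.945 and 0.483 to 0.219 and 0.226 CPM, and was at most 0.334 CPM elsewhere. It was tested through the daf-16 20 °C libraries alone, so that direction was fixed by the filter. The chitinase-like gene chil-27, a marker of oomycete recognition that the response shares, had at most 0.189 CPM.

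Among the other parts of cullin ligases, 25 of 29 listed genes were tested. Heat called 2 higher and 6 lower in N2, 5 higher and 1 lower in pqm-1, and 8 higher and 0 lower in daf-16. These are 32%, 24% and 32% of the 25, near the 34.7%, 25.2% and 33.1% of all genes. Called higher in all 3 strains were ddb-1, the adaptor of CUL-4 (log2 fold change 0.58, 0.34 and 0.50) and dcaf-1, a substrate receptor of CUL-4 (0.62, 0.51 and 0.77, adjusted p 0.00153, 0.00650 and 0.000341). Another substrate receptor of CUL-4, cdt-2, was called lower in N2 and pqm-1, from 54.1 and 45.2 to 39.2 and 36.7 CPM and from 46.9 and 47.1 to 38.8 and 36.4 CPM (log2 fold change -0.39 and -0.32, adjusted p 0.00698 and 0.0251). In daf-16 it was -0.22 and was not called. In N2 dcaf-1 went from 96.6 and 87.9 to 157 and 127 CPM, while cul-4 itself was at 43.4 to 50.7 CPM in the 4 N2 libraries. Subunits of the COP9 signalosome, which removes the NEDD8 activator from cullins, moved by small amounts. The genes csn-2 and csn-3 were called in pqm-1 and daf-16 with log2 fold changes of 0.25 to 0.31, and csn-5 was lower in N2 (-0.25). Other heat calls were wdr-23 in pqm-1 and daf-16 and ubc-12, ula-1 and csn-4 in daf-16, all higher. In N2 fsn-1, mec-15, mel-26 and zif-1 were lower. Against N2 at 20 °C, fsn-1, mec-15 and zif-1 were called lower in daf-16, 12% of the 25 against 2.49% of all genes. In the other comparisons of a mutant with N2 none of the 25 was called.

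The genes called lower were SKR genes in N2: skr-7, skr-13, skr-14 and skr-2. In pqm-1, skr-7 and skr-14 were called lower with no filter on low counts and with only the pqm-1 groups in the fit (adjusted p 0.0213 to 0.0488). Apart from skr-2, these belong with skr-8, skr-9, skr-10 and skr-15 to a group of 7 genes whose levels moved together from library to library. The grouping was made after the values were seen, so it is a description. Several of these genes lie side by side: skr-13, skr-9 and skr-8 on chromosome IV, and skr-14 and skr-7 on chromosome V. Counts of skr-8, skr-9 and skr-13 were not whole in 8, 7 and 7 of the 12 libraries, so reads shared with other genes make these 3 uncertain. In work on this species, skr-7 to skr-10 are needed for normal growth and development.

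The N2 20 °C replicate 2 library was the highest of 12 for all 7 genes, and the heated daf-16 replicate 3 the second highest for all 7. The heated N2 replicate 2 was the lowest for 6 of 7. For skr-7, in N2 replicates 2 and 3, the level was 11.0 and 6.84 CPM at 20 °C and 1.84 and 3.95 CPM after heat. In pqm-1 it was 6.21 and 5.57, then 3.59 and 4.73 CPM, and in daf-16 5.15 and 4.92, then 2.96 and 8.53 CPM. The gene skr-14 stood at 5.04 and 2.55, then 1.21 and 1.81 CPM in N2, at 2.56 and 2.67, then 1.67 and 1.72 CPM in pqm-1, and at 1.84 and 2.08, then 1.26 and 3.84 CPM in daf-16. The gene skr-13 stood at 2.69 and 1.08, then 0.501 and 0.760 CPM in N2, at 1.04 and 1.26, then 0.555 and 0.887 CPM in pqm-1, and at 0.756 and 0.724, then 0.548 and 1.49 CPM in daf-16. In all 3 genes the heated daf-16 pair spanned its 20 °C pair. Summed over the 7 genes, the level was 32.9 and 15.4 CPM in N2 at 20 °C and 7.68 and 24.6 CPM in heated daf-16. The log2 fold change of skr-7 in N2 was -1.56 ± 0.41 (adjusted p 0.0112), and in pqm-1 and daf-16 it was -0.51 and 0.22. In N2 it was -1.27 ± 0.41 for skr-14 and -1.51 ± 0.47 for skr-13 (adjusted p 0.0316 and 0.0278). For the 7 genes in N2 it lay between -1.85 and -1.19 and 3 were called. Leaving out the N2 20 °C replicate 2, edgeR called 0 of the 7 (-1.18 to -0.42, adjusted p 0.0862 to 0.794), and likewise 0 without the heated N2 replicate 2 (-1.26 to -0.72). Without the heated N2 replicate 3, 2 were called, and without the N2 20 °C replicate 3, 6. The 20 °C replicate 2 was also the N2 library with the highest summed intestine markers, at 25129 CPM against 18845 CPM in replicate 3. That gap came from the yolk genes vit-2 (10937 against 8050 CPM) and vit-6 (12521 against 9025 CPM), while ges-1, act-5 and ifb-2 were lower in replicate 2 and elt-2 was at 30.7 against 30.2 CPM. The summed germline and oocyte markers were also highest of the 12 libraries there, at 3057 against 2776 CPM in replicate 3, and stood at 2389 against 2011 CPM in heated daf-16 replicates 3 and 2. Of these the oocyte genes puf-5, rme-2 and oma-1 stood at 411, 512 and 170.2 CPM in N2 20 °C replicate 2 against 335, 417 and 144 CPM in replicate 3. In heated daf-16 they stood at 231, 307 and 105 CPM in replicate 3 against 153, 182 and 76.2 CPM in replicate 2. In heated daf-16 replicate 3, where the 7 skr genes were second highest, vit-2 and vit-6 stood at 7212 and 5492 CPM. In replicate 2 they stood at 5045 and 3955 CPM. There elt-2 and ges-1 were lower too, while act-5 and ifb-2 were higher. Among heated libraries, daf-16 replicate 3 was highest for vit-2, vit-6, puf-5 and rme-2, but not for oma-1 or the germline and oocyte sum. That sum was lower after heat in each strain. In heated daf-16 replicate 3 the sum of 2389 CPM was below every 20 °C library (2488 to 3057 CPM). So were puf-5 and oma-1, while rme-2 was above daf-16 20 °C replicate 2 (289 CPM). The part of these marker genes in the result was not tested.

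**Figure D4:**
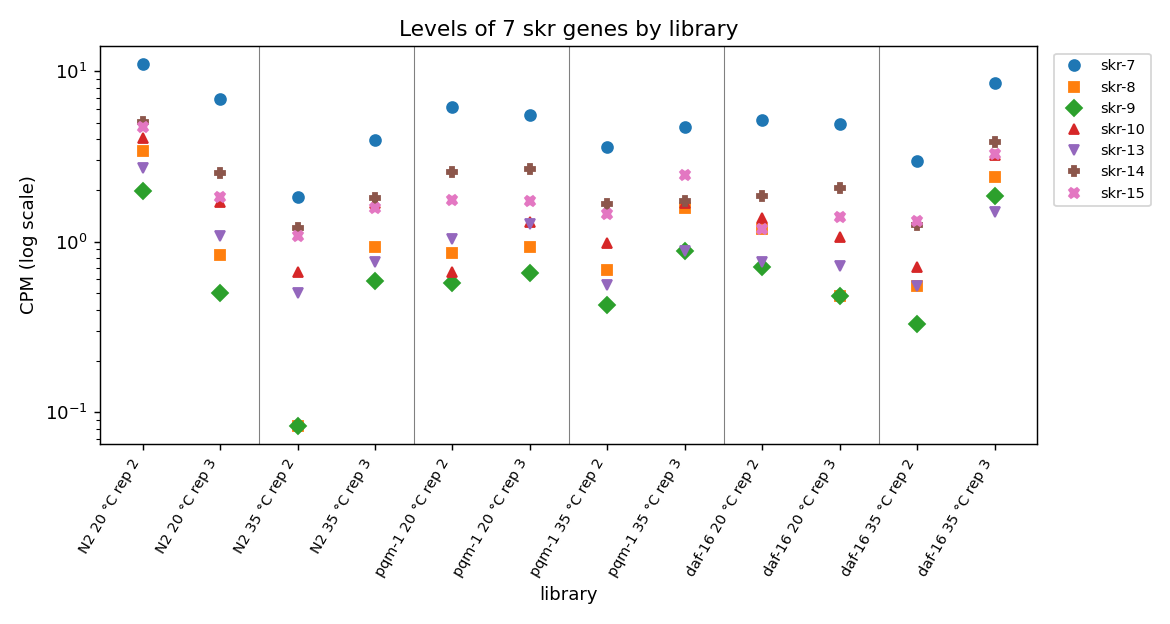
CPM, on a log scale, of 7 skr genes in each of the 12 libraries, with vertical lines separating the 6 groups. All 7 are highest in the N2 20 °C replicate 2 library and second highest in the heated daf-16 replicate 3 library, so the genes share a pattern that splits replicates of the same group.

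The fourth gene lower in N2, skr-2, lies next to skr-1 and encodes a close paralog of it. It stood at 143 and 135 CPM at 20 °C and at 117 and 121 CPM after heat, groups that do not overlap (log2 fold change -0.23 ± 0.07, adjusted p 0.0296). The call was lost with library size scaling, with no filter, with only the N2 groups, and without the N2 20 °C replicate 2 or either heated N2 library (adjusted p up to 0.175). In pqm-1 skr-2 was at 132 and 131, then 119 and 127 CPM, and in daf-16 at 121 and 130.2, then 119 and 118 CPM, with log2 fold changes of -0.10 and -0.08.

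No difference in level between a mutant and N2 passed the threshold for any of the 36 genes. With edgeR 0 genes were called for pqm-1 against N2 at 20 °C (1 at an unadjusted p under 0.05) and 0 after heat (3 unadjusted). Of all genes, 0.063% and 0.28% were called, and 9.67% and 6.46% had an unadjusted p under 0.05. For daf-16 against N2, 0 genes were called at 20 °C (5 unadjusted) and 0 after heat (5 unadjusted), beside 2.49% and 1.09% of all genes called and 19.7% and 16.9% unadjusted. DESeq2 also called 0 in each. Without the filter on low counts edgeR called 4 and 0 genes for pqm-1 and 6 and 8 for daf-16, at 20 °C and after heat. At 20 °C the summed larval moulting markers stood at 742 and 772 CPM in N2, 979 and 1124 CPM in pqm-1 and 1045 and 1353 CPM in daf-16, and bli-1 and noah-1 were called higher in daf-16 (log2 difference 0.76 and 1.13, adjusted p 0.0158 and 0.0128). Their part in these comparisons was not tested. The smallest adjusted p-values were those of skr-3 and pals-14 in heated daf-16 against heated N2. The gene skr-3 was higher there, at 166 and 139 against 125 and 106 CPM (log2 difference 0.40 ± 0.10, adjusted p 0.0851), and passed without the heated daf-16 replicate 3 (0.52, adjusted p 0.0233). The gene pals-14 was lower (-1.65 ± 0.41, adjusted p 0.0866). It met the count minimum only with the heated N2 libraries, so its selection favoured this direction.

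No difference in heat response between strains passed the threshold either. For the difference between pqm-1 and N2, edgeR called 0 of 36 genes (1 at an unadjusted p under 0.05), and for that between daf-16 and N2 0 of 36 (10 unadjusted). DESeq2 called 0 in both, and edgeR without the filter on low counts called 4 and 7. With the filter it called 0% of all genes in both, with 7.79% and 14.9% at an unadjusted p under 0.05. For cul-6 the difference was 0.21 in pqm-1 and 0.48 in daf-16, for skr-3 0.09 ± 0.14 and 0.16 ± 0.14, and for skr-19 0.01 ± 0.14 and 0.03 ± 0.14. For pals-19, called in N2 alone, it was -0.90 ± 0.31 in pqm-1 and -0.80 ± 0.30 in daf-16 (adjusted p 0.597 and 0.268). For skr-16 in daf-16 it was 0.59 ± 0.26 (adjusted p 0.324, unadjusted p 0.0433). The 7 genes of the skr-7 group had differences of 1.69 to 2.71 in daf-16 (adjusted p 0.238 to 0.333). That comparison takes in both libraries in which these genes were highest. The mutants share 1 set of N2 libraries as their control, so these differences are not independent. Without the heated daf-16 replicate 2, skr-7 was called (2.31, adjusted p 0.0481).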

How the data were processed

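Whole-animal RNA-seq of 18 samples was deposited as 1 table of estimated counts per RefSeq transcript, deposited unnormalised by the authors. Of the non-zero values 13.3% are not whole (beyond a tolerance of 1e-06). The aligner, counter and build are not given in the sources used here, so no coordinates are printed. 1 of the 18 value columns, in another unit, holds lengths: they equal an annotated coding length in 95.6% of 14103 single-transcript genes. Replicate 1 libraries were not used in comparisons. If the header lacks a name for the length column, every name stands 1 column too early, and replicates 2 and 3 fall in their labelled group either way. The library labelled pqm-1 20 °C replicate 1 held pqm-1 at 34.5 plain CPM. In the pqm-1 libraries used it was at 9.77 to 22.0 CPM and in the N2 libraries used at 24.1 to 35.1 CPM. Such a shift of names was not tested.

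Rows were matched by accession to RefSeq WBcel235 gene names: 45910 of 50755 matched. Unmatched rows held 23.4 to 24.3% of the counts and were left out. Per gene, the transcript of highest mean was kept and rounded to whole numbers. Counts were tested with edgeR 4.0.16 in R 4.3.3 (TMM, filterByExpr, classic quasi-likelihood F-test, 6 groups in 1 fit, 6 residual degrees of freedom), with Benjamini-Hochberg adjustment over 14278 genes and calls at 0.05, in 9 comparisons. A check of the test on simulated counts changed few genes, none at low levels, so it does not cover members with few counts or small changes. Each SE given is the absolute log2 fold change divided by the square root of the F statistic, and was not estimated separately. Within each group the replicates differed beyond sampling noise (chi-square per degree of freedom 5.04 to 19.1). Strand is not stated, so overlapping genes are uncertain. That the libraries are biological replicates rests on the series' design text.

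The members and gene lists were chosen with earlier results of these data known. Values in every library were given for members called in at least 1 comparison, the pathogen-response members, cul-1 and skr-1. Called genes of the lists were described in less detail, many without the value of every library. Any other gene was named after seeing its values. No sequence is printed, and a planned search for motifs in promoters was not made. Alternatives were no filter, a mean count minimum of 10, library size only, relative log expression factors, a replicate block, DESeq2 1.42.0, the longest transcript, only the groups compared, leaving out each library and, chosen after seeing the data, edgeR's adjusted deviances. Figures were drawn with matplotlib 3.10.9.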

Additional observations from a re-analysis of the deposited data

Results flagged for a closer look

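The 5 libraries labelled replicate 1 enter no comparison. In the 2 of them labelled 20 °C, hsp-16.2 and the 5 members called higher in all 3 strains stood above every 20 °C library used. In plain CPM, hsp-16.2 was 209 in replicate 1 of N2 and 324 in replicate 1 of pqm-1, as labelled, against at most 0.420 in the 20 °C libraries used. In the same order, cul-6 stood at 10.9 and 12.2 CPM (at most 6.91 in the 20 °C libraries used), and skr-3 at 105 and 125 CPM (at most 63.8). The gene skr-16 was at 4.45 and 4.08 CPM (at most 3.19), skr-19 at 26.05 and 26.4 CPM (at most 20.8), and skr-20 at 14.7 and 13.6 CPM (at most 11.4). In the 3 libraries labelled 35 °C replicate 1, cul-6 was at 4.87 to 5.51 CPM and skr-3 at 52.4 to 61.8 CPM, below every heated library used. Genes called lower in N2 differed from these. In the 2 libraries labelled 20 °C, skr-7 stood at 10.5 and 9.69 CPM, skr-14 at 4.93 and 3.95 CPM and skr-13 at 2.00 and 1.73 CPM. Each was above every heated library used (at most 8.52, 3.83 and 1.49 CPM). The gene skr-2, also called lower in N2, stood at 126 and 139 CPM.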

How the results depend on the processing

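Heat called 14, 9 and 8 of the 36 genes in N2, pqm-1 and daf-16. These totals stayed within 1.5 times under the 9 alternatives that keep all libraries, except that a fit of only the N2 groups called 9. The split by direction in N2 was less steady. It was 10 higher and 4 lower in the main fit, 5 and 5 with DESeq2, and 10 and 8 with no filter on low counts. Without a filter on low counts, 4 genes were called for pqm-1 against N2 at 20 °C, 6 for daf-16 against N2 at 20 °C, 8 for daf-16 against N2 after heat, 4 for the heat by pqm-1 interaction and 7 for the heat by daf-16 interaction, against 0 in each with the filter, and the cause was not tested. Leaving out 1 library gave 6 to 15 genes for heat in N2, 4 to 9 in pqm-1 and 4 to 10 in daf-16, and 0 to 1 for daf-16 against N2 after heat and for the heat by daf-16 interaction. In such fits a group holds 1 library, taken to vary like the others. Of 31 heat calls, 11 held in all 21 settings: skr-3 in each strain, cul-6 and skr-19 in 2 strains each, and skr-16, skr-20, pals-14 and pals-19 in 1. No call changed direction in any setting. With the replicate block 12, 9 and 7 genes were called for heat. The numbers 2 and 3 are not known to pair libraries: of 15 correlations between groups of the difference between the replicates, 1 was over 0.1 (range -0.242 to 0.217). Counts under 10 a library leave most pals genes without a usable value.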
